A study of Drosophila melanogaster with 3 samples.

Results

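Of the 5443 peaks in the combined list of svp-eGFP ChIP-seq peaks from Drosophila white prepupae, 1459 had their summit inside an intron and away from every promoter. A summit, the position that the deposited list marks within a peak, was counted when it lay on a chromosome arm, more than 2000 bp from every protein-coding transcription start site (TSS), inside a protein-coding gene body and in no exon of any annotated gene. Of the 5425 summits on the arms, 2344 were past 2000 bp from a TSS, 1573 of these lay in a gene body, and 114 of those were set aside because an exon covered them. The 1459 remaining far intronic summits made up 26.9% of the arm summits (exact 95% binomial interval 25.7 to 28.1%). They came from 1451 peak intervals, and 62 of them lay in more than 1 gene.

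The flies were of 1 transgenic line, strain svp-GFP, in which svp carries GFP at its C-terminus. Chromatin came from whole animals of pooled sex at the white prepupa stage, was sheared by sonication and was precipitated with an antibody against GFP. There were 3 biological replicates of this 1 group, and each replicate contributed a list of 30000 ranked peaks. No GFP-free flies were used here, so binding of svp cannot be told apart from chromatin that the antibody takes up without it. Whether the tagged svp is an extra copy was not given in the sources used here, nor was the number of reads. A whole animal mixes many tissues, so the lists do not show in which cells a site was occupied.

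The gene svp encodes the fly's COUP-TF, a nuclear receptor with no settled ligand, known for roles in photoreceptor and neuroblast fate, the heart and the fat body. Nuclear receptors bind DNA through a zinc finger domain that reads a short half-site, alone or as a repeat. At the white prepupa stage a pulse of the steroid ecdysone starts metamorphosis and switches on a cascade of genes, several of which encode nuclear receptors. Introns of long genes, the first intron above all, are known in flies to hold enhancers, stretches of DNA through which transcription factors act on a promoter at a distance.

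The sequences at 12 far intronic summits show what the highest peaks of this kind look like. Each runs 5′ to 3′ on the plus strand of release 6 of the genome (RefSeq sequence), from 50 bp before to 50 bp after the summit. Capitals mark a nuclear receptor half-site, AGGTCA or TGACCT, or a GATA site, GATAAG or CTTATC, the letters read by GATA factors. The 4 highest summits with a half-site, among those for which sequence is given, were in these genes.
P5CS: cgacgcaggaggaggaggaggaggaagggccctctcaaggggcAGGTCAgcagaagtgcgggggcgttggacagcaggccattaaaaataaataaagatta
gish: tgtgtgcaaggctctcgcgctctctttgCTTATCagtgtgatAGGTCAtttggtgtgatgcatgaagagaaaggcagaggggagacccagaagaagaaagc
Atg1: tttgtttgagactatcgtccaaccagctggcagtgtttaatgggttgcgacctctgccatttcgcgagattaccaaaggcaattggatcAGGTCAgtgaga
lilli: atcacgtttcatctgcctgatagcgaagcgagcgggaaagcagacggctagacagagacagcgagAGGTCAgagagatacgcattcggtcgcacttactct

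The P5CS window (3L:21979933-21980033, signal 1640) holds its half-site 4 bp from the summit. That of gish (3R:16285120-16285220, signal 672), a casein kinase gene, holds a half-site 5 bp and a GATA site 19 bp from the summit. In the autophagy kinase gene Atg1 (3L:12799570-12799670, signal 644) the half-site lies 42 bp away, and in lilli (2L:2900571-2900671, signal 581), which encodes a transcription elongation factor, 18 bp away. P5CS and lilli were supported by all 3 replicates and the other two by 2 replicates each. In gish the replicate signals were 325 in replicate 2 and 195 in replicate 3, in Atg1 they were 367 and 156, and the replicate 1 list held no peak over either summit. The 4 windows were richer in GC than most far intronic summits, whose median was 34.7%, with GC contents of 55.4% in P5CS, 49.5% in gish, 47.5% in Atg1 and 53.5% in lilli.

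The 4 highest summits with a GATA site, again of those with sequence given, were the next.
CG6040: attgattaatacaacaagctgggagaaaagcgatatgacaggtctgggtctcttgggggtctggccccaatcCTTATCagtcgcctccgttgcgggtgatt
CG9328: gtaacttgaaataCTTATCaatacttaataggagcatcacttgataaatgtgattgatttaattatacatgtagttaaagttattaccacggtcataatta
ush: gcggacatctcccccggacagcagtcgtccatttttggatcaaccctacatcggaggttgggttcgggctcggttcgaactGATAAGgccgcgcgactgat
Gprk2: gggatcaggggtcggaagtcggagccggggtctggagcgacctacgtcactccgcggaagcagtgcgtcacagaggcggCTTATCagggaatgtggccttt
The GATA site lies 25 bp from the summit in CG6040 (3R:19100257-19100357, signal 818), 34 bp in CG9328 (2L:20800066-20800166, signal 777), 34 bp in ush (2L:484636-484736, signal 769) and 32 bp in Gprk2 (3R:31435773-31435873, signal 764). The gene ush encodes U-shaped, a cofactor that binds GATA factors, and Gprk2 a kinase of G protein-coupled receptors. The signal of the ush summit was 211, 418 and 141 in the lists of replicates 1, 2 and 3, with ranks of 377, 140 and 783, and that of Gprk2 234, 388 and 154, with ranks of 314, 169 and 651. For CG9328 the lists gave 277, 278 and 214, with ranks of 200, 411 and 326. The ush and Gprk2 windows are GC-rich, at 58.4% and 63.4%, and ranked best in replicate 2, while the CG9328 window has 25.7% GC and ranked lowest there.

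Most of the highest far intronic summits carried neither site. The 4 highest of these, once more of those with sequence given, follow.
CG32486: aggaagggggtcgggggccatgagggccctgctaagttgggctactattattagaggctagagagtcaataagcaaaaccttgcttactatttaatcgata
Eip75B: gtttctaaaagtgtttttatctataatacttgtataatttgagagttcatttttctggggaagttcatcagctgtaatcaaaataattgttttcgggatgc
Raf: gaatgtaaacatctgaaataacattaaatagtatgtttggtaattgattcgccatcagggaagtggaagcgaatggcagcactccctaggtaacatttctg
Eip78C: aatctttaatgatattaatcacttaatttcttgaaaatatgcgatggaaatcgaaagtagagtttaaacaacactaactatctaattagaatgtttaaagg
They lie at 3L:3060731-3060831 in CG32486 (signal 2244), 3L:18011846-18011946 in Eip75B (1988), X:2300658-2300758 in Raf (1492) and 3L:21253847-21253947 in Eip78C (1466). Eip75B and Eip78C encode the ecdysone-induced nuclear receptors E75 and E78, and Raf the kinase that passes the Ras signal on. The Eip75B and Eip78C windows are AT-rich, with GC contents of 29.7% and 24.8%.

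The 20 highest far intronic summits were found in the top 5000 peaks of all 3 replicates. The highest lay in px, plexus, a gene of wing vein patterning, in an intron numbered 4 or 5 by transcript. Its signal was 600, 1115 and 595 in replicates 1, 2 and 3, and it ranked 28, 4 and 20 in their lists, best in replicate 2. A further px summit in intron 2 had 452, 903 and 498 and ranked 60, 7 and 40. The CG32486 summit in intron 1 had 759, 775 and 713 (ranks 14, 20 and 9), and the Eip75B summit 722, 660 and 616 (ranks 18, 35 and 19), so that these genes stood near the top of each list. The summit in P5CS, which encodes an enzyme of proline synthesis, lay in intron 8, had 374, 796 and 472 and ranked 92, 19 and 50. In abd-A, a Hox gene of the abdomen, the values were 280, 580 and 372 and the ranks 196, 52 and 91, again best in replicate 2. The scaling of signal between lists is not stated, so summits were compared between replicates by rank, and the median signals over far intronic summits were 67.4, 86.8 and 60.6 in the lists of replicates 1, 2 and 3.

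**Figure D1:**
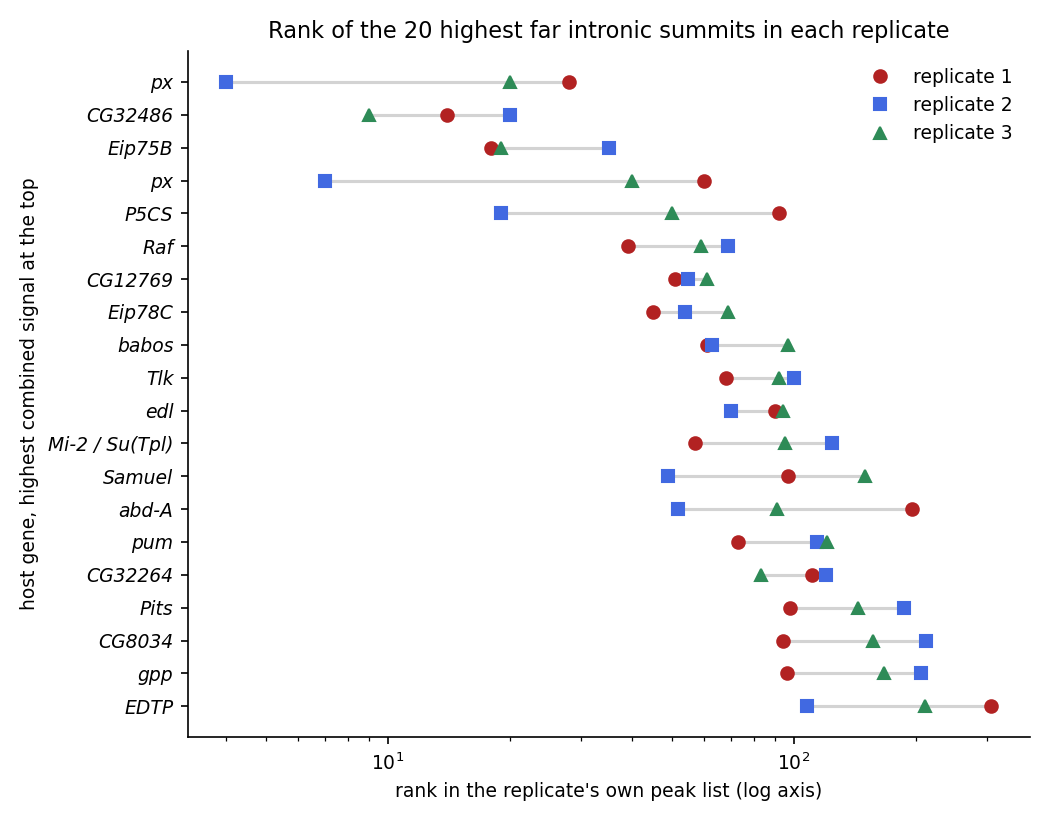
Rank of the 20 highest far intronic summits (rows, by host gene) in the peak list of each replicate (log axis, best rank at the left), with a grey line from the best to the lowest rank. The 2 summits in px and those in P5CS, edl, Samuel, abd-A and EDTP ranked best in replicate 2. Those in Eip75B, Raf, CG12769, Eip78C, babos, Tlk, Mi-2, pum, Pits, CG8034 and gpp ranked best in replicate 1. Those in CG32486 and CG32264 ranked best in replicate 3.

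The other genes with a summit among these 20 have varied functions. They include Tlk, which encodes Tousled-like kinase (signal 1281), edl, a modulator of Ets factors in EGFR signalling (1276), and pum, which encodes the RNA-binding repressor Pumilio (1193). Genes of chromatin are among them, Mi-2, a nucleosome remodeller whose summit also lies within Su(Tpl), a transcription elongation factor gene (1271), and gpp, a histone H3 methyltransferase gene (1012). The summit in EDTP, a phosphatase gene, had the lowest signal of the 20, at 970, with 237, 469 and 258 in the replicates. The remaining summits lay in CG12769, babos, Samuel, CG32264, Pits and CG8034, with signals of 1028 to 1474. Of the 20, 8 were in first introns, 7 in later introns and 5 in introns that are first in 1 transcript and later in another. A half-site was present at 1 and a GATA site at 1, and 0 had the half-site repeated in the same direction with 1 base between. The nearest TSS belonged to another gene in 5 cases, among them Act79B for the P5CS summit, 5227 bp away, and CG43218 for the Eip78C summit, 4123 bp away.

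Far intronic summits had somewhat lower signal than the other summits on the arms. Their signal lay between 120 and 2314, the median being 204, against a median of 225 for the 3966 other arm summits, a ratio of 0.904. Within the top 5000 peaks of replicates 1, 2 and 3 the ratio of the medians was 0.926, 0.923 and 0.910, below 1 in 3 of 3 (exact sign-flip permutation test over replicates, two-sided, p = 0.25, the smallest p that 3 replicates allow). When the arm summits were split into 4 equal groups by signal, far intronic summits made up 22.8% of the highest group (20.6 to 25.1%), then 26.3%, 28.7% and 29.9% (27.4 to 32.4%) of the lowest. Summits far from a TSS and between genes had a median of 201, close to the far intronic ones, and promoter summits, within 500 bp of a TSS, one of 240.

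Support by the replicates was close to that of the other summits. A summit was called supported by a replicate when it lay inside one of that replicate's 5000 highest peaks. All 3 replicates supported 802 far intronic summits (55.0%, exact 95% binomial interval 52.4 to 57.5%) and 2274 others (57.3%, 55.8 to 58.9%), and 56.7% of all arm summits. Replicates 1, 2 and 3 supported 82.1%, 73.2% and 79.4% of the far intronic summits, against 79.0%, 79.7% and 79.9% of the others. Replicate 2 thus held the smallest share of far intronic summits, and its own top 5000 peaks had 23.7% of such summits against 28.6% in replicate 1 and 25.8% in replicate 3. The mean share was 26.0% ± 2.49 (SD, n = 3). Only 32 of the 1459 were supported by no replicate. The full replicate lists of 30000 peaks covered 1363, 1451 and 1450 of them.

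The summits nearest to the threshold of 2000 bp had signals on either side of the median. The summits just inside it lay 2003 bp from a TSS in neb and fok, which overlap (signal 154), 2003 bp in stan (340) and 2006 bp in CG31145 (150). Those just outside lay at 1998 bp in Tgi (134), 1997 bp in IP3K2 (188) and 1996 bp in bbg (530). Across all far intronic summits the distance to the nearest TSS had a median of 5764 bp and a maximum of 86643 bp.

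Per base, first introns held more far summits than later introns. An intron position was counted as first or later over all protein-coding transcripts that have it in an intron, and as both where the transcripts differ. There were 504 summits in first introns, 578 in later introns and 377 in both. The sequence that meets the same rule, in an intron and over 2000 bp from a TSS, is called eligible here, and came to 8.52 Mb of first, 24.9 Mb of later and 6.15 Mb of both kinds. The densities were 59.1 summits per Mb in first introns, 23.3 in later introns and 61.3 in introns of both kinds. In the top 5000 peaks of each replicate, first introns had 57.7, 47.9 and 51.9 per Mb and later introns 23.1, 19.1 and 20.2, so the 2 kinds did not overlap. The replicate means were 52.5 ± 4.96 and 20.8 ± 2.09 per Mb (SD, n = 3).

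The ratio of first over later introns was 2.54 in the combined list, and 2.49, 2.51 and 2.56 in the replicates. The direction was the same in 3 of 3 (exact sign-flip permutation test, two-sided, p = 0.25, the smallest possible with 3 replicates). Of the 1082 summits in first or later introns, 46.6% were in first introns (exact 95% binomial interval 43.6 to 49.6%), which make up 25.5% of the sequence of both kinds. The signals did not differ much between them, with medians of 206 in first introns, 203 in later introns and 209 in both. All 3 replicates supported 56.7%, 54.7% and 53.1% of them. In absolute numbers, the lowest intron number a summit could have was 1 for 881 summits, 2 for 357, 3 for 105, 4 for 65 and 5 for 18, with 33 beyond. Summits in first introns lay a median of 4692 bp from a TSS, and those in later introns 7508 bp.

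The density was lower farther from the nearest TSS, and the gap between first and later introns was present in each range that held summits of both. From 2 to 5 kb there were 72.9 summits per Mb of first introns and 33.1 per Mb of later introns, and from 5 to 10 kb 60.1 and 33.5. From 10 to 20 kb the values were 44.1 and 25.7, and from 20 to 50 kb 32.3 and 18.4, the first of these resting on 17 summits. In each of the 3 replicates first introns were denser in all 4 ranges. Over 50 kb from a TSS, the eligible 5.03 Mb held 6 summits, all in later introns. Restricted to bases within 10 kb of a TSS, the ratio was 2.03.

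**Figure D2:**
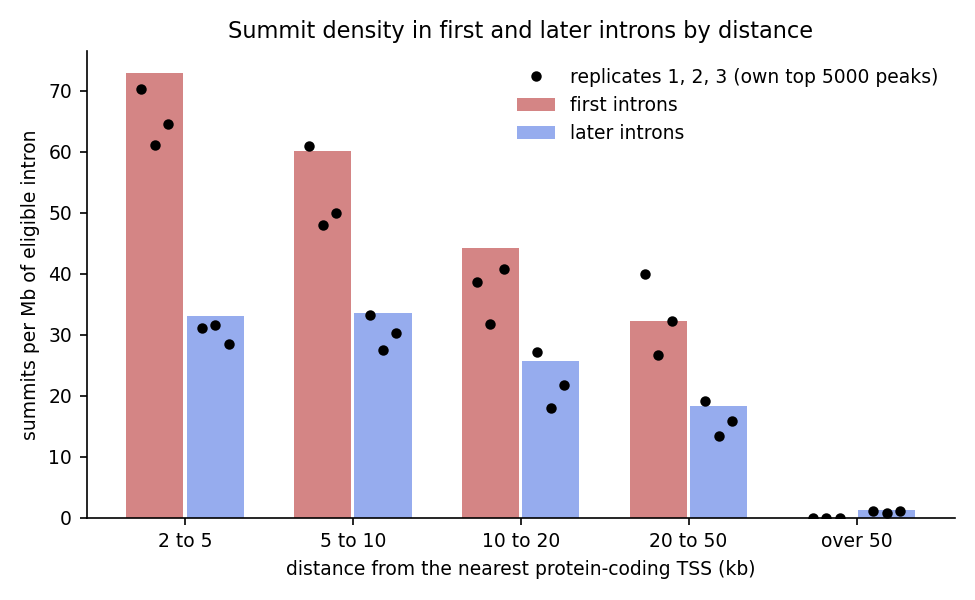
Far intronic summits per Mb of eligible intron (bars, combined list) by distance from the nearest protein-coding TSS in kb, in first and later introns, with the top 5000 peaks of each of the 3 replicates as points. First introns are above later introns in every range up to 50 kb, with 72.9 and 33.1 per Mb at 2 to 5 kb, and 32.3 and 18.4 at 20 to 50 kb.

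The ratio was smaller with the longest genes left out and within genes that have both kinds of intron. The 11 genes with over 200 kb of eligible sequence held 4.88 Mb and 18 summits, and the ratio in all other genes was 2.29. With the canonical transcript of each gene alone it was 2.11. In the 459 genes that have at least 2 kb of each kind, first introns had 39.4 and later introns 20.1 summits per Mb, a ratio of 1.96. Of these genes 163 held a summit, and 87 were denser in their first introns and 76 in their later ones. The direction of the pooled ratio was the same in each of these restrictions, while the count of genes was close to even.

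A total of 660 genes hosted a far intronic summit, which is 15.2% of the 4339 protein-coding genes that have eligible sequence. Of these 334 had 1, 131 had 2, 117 had 3 or 4 and 78 had 5 or more. The 78 genes held 510 summits, or 35.0% of all. The replicates' own top 5000 peaks gave 636, 583 and 610 host genes (610 ± 26.5, SD, n = 3). Hosts were long genes, with a median length of 26.4 kb against 8.55 kb for all genes with eligible sequence. Among genes with less than 2 kb of eligible sequence 1.61% were hosts, against 35.7% of those with 10 to 20 kb and 56.2% of those with over 50 kb. The density was highest not in the longest genes but in those with 5 to 10 kb, at 71.4 per Mb, and lowest in those over 50 kb, at 20.7 per Mb.

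The 15 genes with the most far intronic summits held 167 of them, 11.4% of all. At the top, with 14 each, were kirre, an adhesion protein gene of myoblast fusion, and ush. In kirre all 14 lay in later introns, 11 of them in intron 6, and their signals were 120 to 859, median 263. The gene is 394 kb long, and its density was 52.5 per Mb, against 36.9 per Mb of all eligible sequence. All genes with over 50 kb of eligible sequence had 20.7 per Mb. In ush, with 310 per Mb, 13 of the 14 lay in an intron of 49.1 kb that is intron 1 in at least 1 transcript. By intron kind 6 of the 14 were first, 1 was later and 7 were both. A GATA site lay within 50 bp of 5 of the 14, and of 11.2% of all arm summits. Of the rest of the 15 genes, jing had 3 such summits and tara and Eip75B 2 each. Tet, heca, Ptp61F and CG1677 had 1 each, and the remaining genes, kirre among them, had 0. The replicates' own top 5000 peaks held 18, 11 and 11 far intronic summits in kirre and 12, 14 and 12 in ush. All 3 replicates supported 11 of 14 in each of these genes.

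Genes with 12 summits each were sbb, Tet, Mnt, jing, tara and heca. The gene sbb, scribbler, encodes a corepressor, Tet an enzyme of the family that oxidises methylated cytosine in other animals, Mnt a repressor that competes with Myc for Max, and jing a zinc finger transcription factor. Mnt had the highest density of the 15 genes, at 638 per Mb, with 7 summits in first introns, 4 in later introns and 1 in both, and signals of 134 to 636. In tara, taranis, all 12 lay in 1 first intron of 30.3 kb (478 per Mb), with signals of 141 to 613. In jing the 12 lay in a first intron of 110 kb, and in sbb in an intron of 65.6 kb. The counts per replicate were 9, 10 and 9 in Mnt, 12, 8 and 12 in tara, 12, 10 and 12 in jing, and 10, 10 and 15 in sbb. Tet had 11, 7 and 10 and heca, headcase, 10, 12 and 9, so replicates differed by up to 5 summits in these 6 genes.

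Of the genes with 9 or 10 summits, Raf stood out by density and by signal. Its 10 summits, all in intron 2 of 43.6 kb, came to 497 per Mb, had signals of 156 to 1492 with a median of 358, and 9 of 10 were supported by all 3 replicates. The replicates' own lists held 10, 9 and 10. Eip75B had 10 summits, with signals of 148 to 1988 and a median of 243, and its replicate counts were 10, 14 and 10. The Wnt receptor gene fz2 had 10 with signals of 135 to 328, the narrowest range of the 15 genes, and 9 in each replicate. CG43658 had 10, and the tyrosine phosphatase gene Ptp61F, CG1677 and Snoo, the fly gene of the Ski and Sno family, had 9 each. The gene hth also had 9 and is not among the 15, because ties were settled by the summed signal. Of the 167 summits in these 15 genes, 1 each in ush, sbb and Eip75B and 0 in the other 12 genes had a half-site, which was present at 5.35% of all arm summits.

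**Figure D3:**
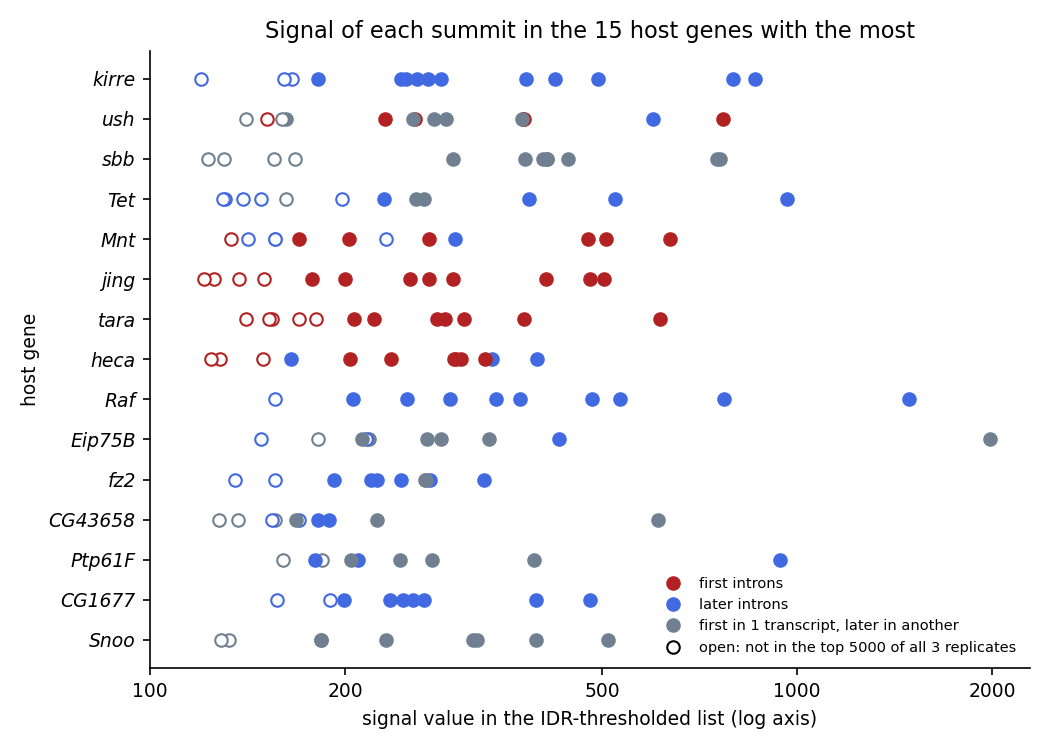
Signal value in the combined list (log axis) of each far intronic summit in the 15 host genes with the most, coloured by intron kind. Filled points were in the top 5000 peaks of all 3 replicates. Raf and Eip75B reach 1492 and 1988, the summits of jing and tara are all in first introns, and the highest open point, at 411, is in sbb.

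Many far intronic summits had another one nearby. The median distance from a summit to the nearest other far intronic summit was 3521 bp, and 38.0% had one within 2 kb and 56.4% within 5 kb. The same shares were not computed for the other arm summits, so whether this is particular to far intronic summits was not tested. The summits fell in 755 introns, of which 440 held 1. The 163 introns with 3 or more held 715 summits, and the most in 1 intron was 13, in ush. Summits of 1 intron share their host gene and neighbourhood and are not independent of each other, and the intervals given here cover counting error only.

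Several of the longest genes had none. Myo81F, on 3R, has 1793 kb of eligible sequence, and Pzl, lovit, DIP-lambda, CG17684 and bru3 have 245 to 630 kb each. All of these genes had 0 summits of any class in their body. Whether reads can be placed in such sequence was not tested, for these or for other genes and chromosomes at 0. No far intronic summit lay on chromosomes 4 and Y, which have 0.310 and 0.928 Mb of eligible sequence. The arms with summits had 45.1 per Mb on X, 40.2 on 2L, 38.5 on 2R, 35.9 on 3L and 33.6 on 3R. On X the replicates had 47.1, 33.0 and 37.1 per Mb, so X stood above 2L (40.8 per Mb) in replicate 1, below it (35.0) in replicate 2 and level with it (37.1) in replicate 3. In bases not marked as repeats in the RefSeq sequence, the ratio of first over later introns was 2.54, as over all eligible bases.

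For 370 far intronic summits (25.4%, exact 95% binomial interval 23.1 to 27.7%) the nearest TSS belonged to a gene other than the host. The same was true of 35.1% of the eligible length. The share was 17.5% in first introns, where 19.9% of the length is nearer to another gene, and 38.8% in later introns, where it is 43.9%. In introns of both kinds the share was 15.4% of summits and 20.1% of the length. In the replicates the share of summits was 26.8%, 25.8% and 27.0%, below the 35.1% of length in 3 of 3.

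Genes of the ecdysone response and nuclear receptor genes often hosted far intronic summits. Of 20 genes of the ecdysone response with eligible sequence 17 were hosts, and of 15 nuclear receptor genes 11, against 15.2% of all eligible genes. The genes of these lists are long, with a median of 17.4 kb and 18.1 kb of eligible sequence against 1.41 kb over all genes, and 35.7% of all genes with 10 to 20 kb were hosts. Per eligible Mb the ecdysone genes had 131 summits and the nuclear receptor genes 125, against 37.3 over all genes when a summit in overlapping genes is counted for each. All genes with 10 to 20 kb of eligible sequence had 54.0 per Mb. The list medians were 3 and 1 summits per eligible gene, and 0 over all genes. The lists share several genes, Eip75B and Hr4 among them, and no test was made of any list.

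After Eip75B with 10 summits, the ecdysone list was led by Hr4, a nuclear receptor gene, with 8 (highest signal 931, 6 supported by all 3 replicates) and tai, the gene of a coactivator of the ecdysone receptor, with 8 (highest 606, 8 supported by all 3). Eip74EF, which encodes an ecdysone-induced Ets factor, also had 8 (highest 499.8, 4 supported by all 3). In the nuclear receptor list Hr3, an early-late gene of the ecdysone cascade, had 6 summits with a highest signal of 407. The 3 ecdysone genes without a far intronic summit were Blimp-1, a transcriptional repressor gene, with 3.11 kb of eligible sequence, Eip63F-1 with 11.7 kb, and chinmo with 28.5 kb. The 4 receptor genes without one were Hr51, Hr96, dsf and eg, with 4.09, 1.14, 8.05 and 0.858 kb. The tagged gene svp itself, named because it carries the tag, had 2 far intronic summits. The summit in its first intron had a signal of 358, with 85.3, 170 and 69.8 in replicates 1, 2 and 3. The other, in intron 3, had 158, with 48.8 in replicate 2 and 41.6 in replicate 3 and no peak in replicate 1.

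Of the lists for growth factor signalling, those for EGFR and Ras, Dpp and TGF-beta, and Wnt and Hedgehog held between 106 and 150 summits per Mb, against 37.3 per Mb over all genes. Their genes had a median of 13.2, 4.35 and 8.31 kb of eligible sequence in that order. Of all genes, 15.2% were hosts, but 14.5% of those with 2 to 5 kb, 31.4% with 5 to 10 kb and 35.7% with 10 to 20 kb. In the same order, all genes of these ranges had 56.3, 71.4 and 54.0 summits per Mb. In the EGFR and Ras list 10 of 18 eligible genes were hosts (136 summits per Mb), led by Raf with 10, pyd, a junction protein gene, with 6, and pnt, the gene of an Ets factor downstream of Ras, with 5. Cbl and Krn had 0, on 0.508 and 1.65 kb, and so had rl, the gene of the MAP kinase of this pathway, on 38.0 kb. In the Dpp and TGF-beta list it was 7 of 17 (150 per Mb), led by the receptor gene tkv with 7 summits (highest signal 840), the transcription factor gene shn with 7 (766) and cv-2, which encodes a secreted BMP-binding protein, with 5 (633). Actbeta, an activin ligand gene, and Mad, the gene of the transducer of the Dpp signal, had 0, with 1.71 and 4.63 kb of eligible sequence. The Wnt and Hedgehog list had 9 of 19 (106 per Mb), with 10 in fz2, 6 in the receptor gene fz and 5 in nkd, an inhibitor of Wnt signalling, while Axn and Wnt6 had 0. Genes at 0 are named in alphabetical order whatever their length, and a 0 on under 2 kb says little, since 1.61% of all such genes were hosts.

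The other signalling lists and the fat body list differed in the share of hosts and in density. Hippo and Fat-Dachsous genes were hosts in 6 of 15 cases (87.7 per Mb), with 7 summits in the cadherin gene ds, 5 in kibra, of which 0 were supported by all 3 replicates, and 3 in the kinase gene wts, and 0 in Tao and crb. Notch genes were hosts in 4 of 14 cases (41.8 per Mb), with 5 in the coactivator gene mam and 2 each in N, the receptor gene, the metalloprotease gene kuz and the ligand gene Ser. H and Nct had 0 on 0.508 and 0.062 kb, and longer genes at 0 were nmo, fng and numb, on 60.7, 17.1 and 13.6 kb. In the insulin and TOR list 3 of 16 were hosts, or 18.8% (102 per Mb), namely the insulin receptor gene InR with 5 summits and a highest signal of 300, the transcription factor gene foxo with 5 and a highest signal of 216, and S6k with 1. Akt and Lk6 had 0. Of the fat body and lipid storage genes, 2 of 14 were hosts, or 14.3% (53.7 per Mb), near the 15.2% of all genes, namely LpR1, a lipophorin receptor gene, with 2 summits and the lipase gene bmm with 1, and the highest signals were 201 and 138. ACC and AkhR had 0. The genes with eligible sequence have a median of 1.41 kb of it in the insulin and TOR list and 1.14 kb in the fat body list. In the Hippo and Notch lists the medians are 9.46 and 11.2 kb. All genes with under 2 kb had 35.9 summits per Mb, those with 5 to 10 kb 71.4 and those with 10 to 20 kb 54.0.

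Chromatin and clock genes were dense hosts on little sequence, beside 15.2% hosts and 37.3 summits per Mb over all genes with eligible sequence. Their genes had a median of 0.766 and 5.81 kb of it, in that order. Of all genes with under 2 kb 1.61% were hosts, and of those with 5 to 10 kb 31.4%. In the same order, all genes of these ranges had 35.9 and 71.4 summits per Mb. In the chromatin regulator list 6 of 23 genes were hosts, with 189 summits per Mb on 0.0690 Mb, led by osa, a Brahma complex gene, with 4, and Mi-2 and trx, a histone methyltransferase gene, with 3 each. Asx and E(bx) had 0. In the circadian clock list 4 of 10 were hosts (154 per Mb), with 6 summits in vri, all supported by the 3 replicates, 4 in Pdp1 and 2 in cwo, which are transcription factor genes of the clock, 2 in the kinase gene sgg, and 0 in Clk and Pdfr. Of the GATA factors and their cofactor 2 of 6 were hosts, ush with 14 and grn with 1, while GATAd and GATAe had 0, so the 173 per Mb of this list rests on ush.

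The density of summits was low in the ion channel list. In the adhesion list it was near that of all genes with over 50 kb of eligible sequence and below that of genes with 20 to 50 kb. The 25 eligible genes of ion channels and synapse had 0.727 Mb of eligible sequence and 2 hosts with 1 summit each, Nmdar1 with a signal of 519 and nAChRalpha6 with 195, which is 2.75 per Mb. CASK and Ca-alpha1D had 0. Genes of cell adhesion and axon guidance were hosts in 15 of 38 cases, but on 1.93 Mb their density was 21.8 per Mb. These genes have a median of 36.3 kb of eligible sequence. All genes with 20 to 50 kb had 40.7 per Mb and those with over 50 kb 20.7 per Mb, and 42.8% and 56.2% of them were hosts. Their hosts were led by kirre, and by the teneurin genes Ten-m and Ten-a and the guidance receptor gene robo2 with 4 each, while CadN2 and Con had 0 on 64.1 and 104 kb. Per Mb, neuroblast and neuronal fate genes (9 of 18, 45.2 per Mb, with 4 in zfh1, 3 each in grh, mamo and br, and 0 in Imp and cas) and Hox genes (3 of 8, 44.5 per Mb) lay near the value of all genes. Among the Hox genes Antp had 8 summits with a highest signal of 489, Ubx 2 and abd-A 1, and Abd-B and Dfd had 0.

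Lists for tissues of the prepupa varied. Imaginal disc patterning genes were hosts in 11 of 28 cases (53.9 per Mb), with 9 summits in hth, a homeodomain gene, 5 in bab1 and 4 in bi, and 0 in B-H1 and B-H2. Muscle genes were hosts in 5 of 17 (38.0 per Mb), with 5 in twi and 1 each in rols, Strn-Mlck, Mef2 and Zasp52, and 0 in Mf and Mhc. Heart and midgut genes were hosts in 4 of 16 (63.1 per Mb), with hth again at the top, then bowl with 2 and dpp with 1, and 0 in Doc1 and GATAe. Basement membrane and matrix genes were hosts in 5 of 17 (42.5 per Mb), with 4 in dlp and 3 each in dally and Mmp2, and 0 in Col4a1 and Cow. For glia it was 4 of 11 (91.3 per Mb), with 5 in pnt and 1 each in Indy, Tret1-1 and axo. Haemocyte genes were hosts in 2 of 11 cases, ush and Pvf3, and 14 of their 16 summits (106 per Mb) lay in ush. For cell death and autophagy it was 3 of 8 (91.3 per Mb, on 3 summits), 1 summit each in Atg1, Atg5 and egr, and for epidermis and cuticle 1 of 12, grh (36.4 per Mb). The genes at 0 named by the same rule were Eaat1 and Gli for glia, Hml beside Col4a1 for haemocytes, Atg17 and Atg18a for autophagy, and Cpr49Ac and Cpr62Ba for cuticle.

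Half-sites and GATA sites were more frequent at far intronic summits than in their flanks. Each 101-bp window around a summit was searched on both strands for exact matches and set beside windows of the same size 500 bp to either side. A half-site was present at 76 summits (5.21%, exact 95% binomial interval 4.13 to 6.48%), against 2.57% of flanks, 5.40% of the other arm summits and 5.35% of all arm summits. Of all 101-bp windows tiled over the eligible sequence, 2.48% held one. The difference between summit and flank was 1.36, 3.31 and 2.34 percentage points in the top peaks of replicates 1, 2 and 3, above 0 in 3 of 3 (exact sign-flip permutation test, two-sided, p = 0.25, the smallest possible). The same letters read backwards and not complemented, ACTGGA, were at 3.08% of summits and 2.98% of flanks.

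A GATA site lay at 159 far intronic summits (10.9%, 9.34 to 12.6%), against 5.07% of flanks, 11.4% of the other arm summits, 11.2% of all arm summits and 4.05% of eligible windows. The replicate differences were 3.95, 6.79 and 4.29 points, again above 0 in 3 of 3 (exact sign-flip permutation test, two-sided, p = 0.25). The letters read backwards, GAATAG, were at 3.43% of summits and 2.67% of flanks. The shorter GATAA, which is part of the GATA site, was at 31.0% of summits and 18.6% of flanks. In first introns 13.1% of summits held a GATA site (10.3 to 16.4%), against 5.36% of flanks, and in later introns 10.03% (7.71 to 12.8%), against 4.41%, so the intervals of the 2 intron kinds overlap. For the half-site it was 4.56% in first and 5.71% in later introns. The shares of both sites were thus near those of the summits elsewhere.

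**Figure D4:**
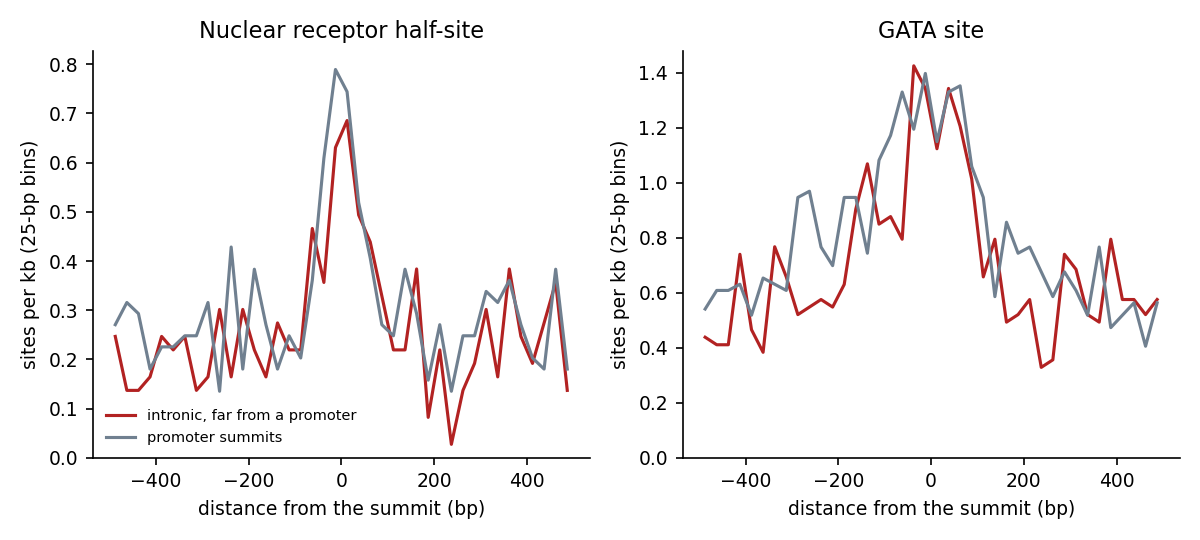
Sites per kb in bins of 25 bp from 500 bp before to 500 bp after the summit, for the half-site (left) and the GATA site (right), at far intronic summits and at promoter summits. The densest bin lies within 50 bp of the summit for both sites in both sets, the half-site reaching 0.685 per kb at far intronic summits and 0.789 at promoter summits. The GATA peak at promoter summits is broader, with at most 1.40 per kb within 50 bp and 1.33 and 1.35 in the bins centred 62.5 bp to either side.

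Most far intronic summits had neither site. Both were present at 15 and neither at 1239 (84.9%). Repeats of the half-site were rare. Allowing 1 mismatch, the half-site repeated in the same direction with 1 base between, the arrangement COUP-TF receptors are known to bind, was at 2 summits (0.137%, 0.0166 to 0.494%) and at 5 of all 5425 arm summits (0.0922%), and the inverted repeat with 1 base between at 1. The extended half-site of Ftz-f1, CAAGGTCA, was at 9 (0.617%, against 0.240% of flanks and 0.553% of all arm summits). The homeodomain letters TAATTA were at 8.77% of summits, 6.07% of flanks and 7.91% of all arm summits, and in the replicates the difference averaged 1.29 ± 0.682 points (SD, n = 3). Summits in the upper 729 by signal held a half-site in 6.17% of cases and a GATA site in 11.7%, and the lower 730 in 4.25% and 10.1%, with intervals that overlap.

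The DNA at far intronic summits was poor in GC. The median GC content within 50 bp of the summit was 34.7%, against 41.6% in the flanks, and it was lower at the summit than in the flanks for 65.2% of summits (62.7 to 67.6%). At promoter summits the medians were 40.6% and 43.1%, and at summits far from a TSS and between genes 32.7% and 44.1%. Of all 6-base words counted with both strands, those most in excess at far intronic summits were made of A and T, led by TTAAAA (25.02% of summits, 14.7% of flanks). The first with another base was TGATAA (15.1% and 7.06%), which shares GATAA with the GATA site. The word with the largest deficit was GCCAAA (6.85% and 12.6%).

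The GC content moved with the replicates that supported a summit. Summits in the top 5000 of replicate 2 alone had a median of 43.6% (n = 49), against 34.2% for replicate 1 alone (n = 122) and 32.7% for replicate 3 alone (n = 61). Those shared by replicates 2 and 3 had 40.6%, those shared by 1 and 2 had 42.6%, those shared by 1 and 3 had 32.7%, and the 802 shared by all 3 had 34.7%. When far intronic summits were split into 4 equal groups by GC content, in the lowest group replicates 1, 2 and 3 supported 83.0%, 71.0% and 83.0%, and in the highest group 76.4%, 83.0% and 74.8%. GATA sites were at 4.66% of the lowest group and 20.3% of the highest, and half-sites at 1.64% and 10.7%. GATA sites also lay at 26.5% of the summits supported by replicate 2 alone and at 7.38% of those of replicate 1 alone. The excess of both sites was largest in replicate 2, and the part of base composition in it was not tested.

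**Figure D5:**
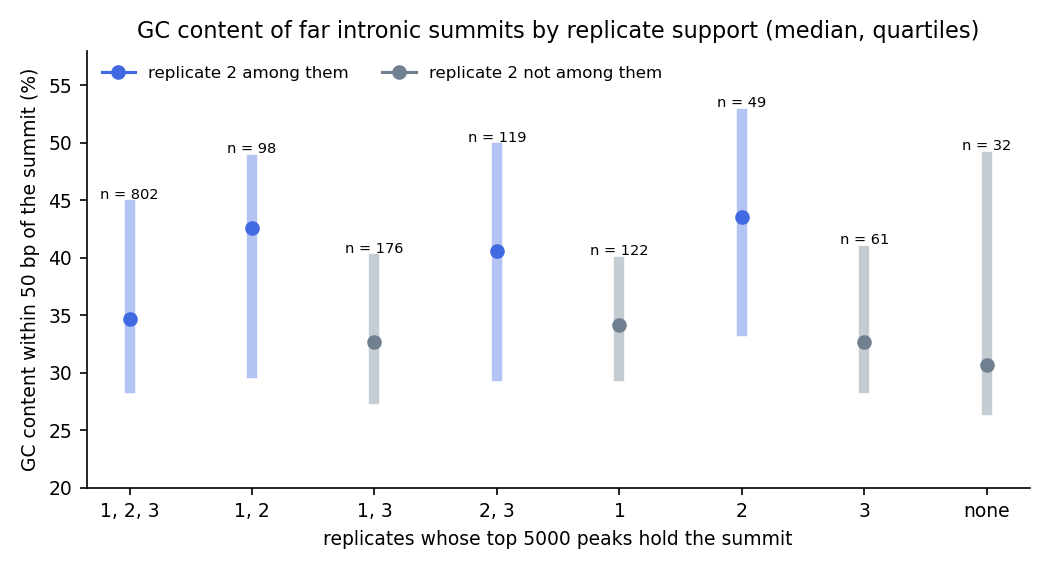
GC content in % within 50 bp of the summit, median (point) and quartiles (bar), for far intronic summits grouped by which replicates held them in their top 5000 peaks. Groups with replicate 2 but not all 3 replicates have medians of 40.6 to 43.6%, and groups without replicate 2 of 30.7 to 34.2%.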

How the data were processed

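Peaks of anti-GFP ChIP-seq in 3 biological replicates were taken from the deposited lists in narrowPeak format on dm6. Per the deposited manifests, each replicate list was made from its own alignments and a control file shared by all, a pooled list from all alignments, and the IDR-thresholded list from these. For aligner, peak caller and IDR cut-off, a name or value was not given in the sources used here. Signal values are as deposited by the authors, with their scaling not stated. They were compared within a list, and values from several lists are given side by side with ranks. The −log10 q-values deposited by the authors, between 2.24 and 3.11 for the far intronic peaks, were not used in any test. The lists on dm3 were not used.

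The summit was the peak start plus the summit offset. Genes, TSSs, exons and introns came from Ensembl 115 (FlyBase 6.54), and sequence from RefSeq. Transposable element records count as genes, and 3 summits were left out for these alone. Read depth is unknown, and exact 95% binomial intervals cover counting error over peaks only. Replicate values used the 5000 highest peaks of each list, and sign-flip permutations over 3 replicates cannot go below p = 0.25, so no comparison could pass 0.05. The labels call the samples biological replicates. The sign-flip permutation test gives p = 0.25 whenever all 3 replicates go the same way, whatever the spread between them. Its p-values therefore show agreement in direction only, and the spread is given by the SD.

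The summits, gene lists, motifs and rules were chosen with earlier results of these data known. Named are the 20 highest summits supported by all 3 replicates, the 15 genes with the most summits, up to 3 hosts with the most summits and 2 eligible genes at 0 (in alphabetical order) of each of 24 gene lists, with others, such as ties, chosen after their values were seen, and the 3 summits on each side of 2000 bp. Sequences are the 4 highest with a half-site, with a GATA site and with neither, none of them from 2R. A total of 24 motifs were searched. Of 487 list symbols, 8 matched no gene. Alternatives changed the distance, annotation, list, support rule, windows and replicates. Python 3.11.15, numpy 2.4.6, scipy 1.17.1 and matplotlib 3.10.9 were used. In tests on simulated data, 60 of 60 summits placed in first introns, 60 of 60 in later introns and 60 of 60 outside were returned as such, and 100 of 100 planted half-sites were found. The summits were placed by the same annotation that sorts them, so their return checks the code and cannot reveal an error of annotation.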

Additional observations from a re-analysis of the deposited data

How the results depend on the processing

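Of 64 alternative values for 9 results, 18, all given here, counted as moved. These moved shares by more than the replicate spread or the interval, or the count of host genes by over 1.5 times. Shares and counts have no direction and cannot reverse. Of the ratios and the differences from flanks, which can, 0 reversed. Ratios and differences were judged by direction alone and could move further. With a minimum distance of 1000 bp the share of far intronic summits among arm summits was 35.6% and the share in first introns 51.9%, and with 5000 bp these were 15.4% and 36.8%. With canonical transcripts alone the share in first introns was 42.0%. Support by all 3 replicates was 88.97% with the top 10000 peaks and 40.7% with a reciprocal overlap of at least 50%. With TSSs of every biotype, the nearest TSS belonged to another gene for 35.0%. The upper 50% of peaks by signal left 401 host genes, against 660. Leaving out 1 replicate meant keeping only those summits of the combined list that both other replicates supported. The combined list itself was still the one made from all 3 replicates. The summits kept in this way had 480 to 508 host genes. With 100 bp on each side of the summit, the excess over flanks was 4.18 points for the half-site and 9.49 for the GATA site, against 2.64 and 5.83. Of the summits kept, 47.0 to 47.7% were in first introns and 26.2 to 27.0% were nearest to another gene. They made up 61.7 to 67.0% of all far intronic summits. The cause of these moves was not tested beyond what each definition sets. The ratio of first over later introns ran from 1.96, in genes with at least 2 kb of both kinds, to 2.66, without replicate 1. Taking the 5443 highest peaks of the pooled list gave the same peaks and so the same values. Alternatives by repeats, gene length, chromosomes 4 and Y, distance within 10 kb, transposable elements and intron kind were chosen after seeing the data. No paired analysis was possible because the labels give 1 group.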

Other observations

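The genes nearest to a far intronic summit without hosting it were spread thinly. The most summits for which another gene's TSS was nearest was 7, for aust, and 6 each for CG14269, CG34300, CG4116 and Spn28Db. These 5 genes were chosen after their values were seen. Among the letters searched, those of the bHLH E-box CAGCTG were at 3.36% of far intronic summits and 3.98% of flanks, those of Sd, the TEAD factor of the Hippo pathway, at 4.11% and 5.24%, and those of the GAGA factor at 5.69% and 5.35%. The Sd letters were lower at the summit in 3 of 3 replicates, with a mean difference of -0.942 ± 0.355 percentage points (SD, n = 3), and no p below 0.25 is possible with 3 replicates (exact sign-flip permutation test, two-sided, p = 0.25).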
